A study of Mus musculus with 21 samples.

Results

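The 35 coagulation and fibrinolysis genes described here are a set fixed by name: the clotting factors and fibrinogen chains, the natural anticoagulants, the plasminogen system with its inhibitors, and the thrombin receptor F2r. All 35 were found by symbol among 52636 gene identifiers, and all 35 were among the 17104 genes that passed a filter on low counts. RNA-seq of total RNA measured them in livers of wild-type mice. On normal chow 5 livers, labelled week 0, were taken after 8 weeks, and 8 livers each were taken after 8 and 16 weeks on CDA-HFD, the usual short name of a choline-deficient, amino acid-defined high-fat diet that brings about steatohepatitis and fibrosis. The labels name no strain, sex or age. No chow liver of the 16-week age is among the samples, so 16 weeks on the diet and the added time cannot be told apart. Because the chow label reads week 0, added time may also enter the comparison at 8 weeks. Nothing in the labels says whether each library came from its own mouse, so the p-values measure the spread between these libraries.

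Libraries held 33522456 to 42586342 counts on chow, 29037525 to 45868842 at 8 weeks and 35254088 to 48901145 at 16 weeks. Hepatocyte markers were high in all 21 libraries, with a summed level of at least 77477 CPM (the usual count relative to library size, here after scaling by TMM, edgeR's trimmed mean method). The library labelled 8-week replicate 3 stood apart. Its log expression correlated with the other 8-week libraries at r = 0.813 to 0.883 across genes, against 0.948 to 0.991 among those, its TMM factor was 0.496, and it held 1546 CPM of squamous epithelium transcripts and 2644 CPM of skeletal muscle transcripts, whose highest sums in the other 8-week libraries were 271 and 321. Members whose call changed, or whose called value moved by over 1.5 times, without it are given with and without it. Exocrine pancreas transcripts, 7 in the list, summed to 8115 CPM in 8-week replicate 4 and 384 CPM in replicate 5, against at most 76.6 in the other 8-week libraries, 31.5 on chow and 16.6 at 16 weeks. An alternative left out replicates 3, 4 and 5 together: it called 6 members higher and 10 lower at 8 weeks, 8 and 21 at 16 weeks against chow, and 3 and 18 between the times.

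Clotting runs as a cascade of plasma proteases, most of them made by hepatocytes, that ends with thrombin cutting fibrinogen into fibrin. Tissue factor starts it, factors V and VIII act as cofactors, and antithrombin, the protein C system and tissue factor pathway inhibitor hold it back. Plasmin, made from hepatocyte plasminogen by the activators tPA and uPA, dissolves fibrin. The liver thus makes most of the zymogens, while endothelial cells, macrophages and mesenchymal cells make many of the receptors, initiators and activators.

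The 3 fibrinogen genes lie side by side on chromosome 3 (GRCm38, GENCODE M21: Fgg 83007724 to 83015049, Fga 83026076 to 83033627, Fgb 83040141 to 83049863 on the minus strand) and their transcripts moved together, so the 250 bases before their RefSeq starts are printed. Those of Procr and Plaur, members that rose more than 10-fold on the diet, stand beside them. Sequences are from RefSeq on GRCm38.p6, and the set of promoters used here covered 26 of the 35 members. Each runs 5′ to 3′ towards the start, and capitals mark matches to the motifs listed after them.
Fga, chr3:83025903-83026152, plus strand: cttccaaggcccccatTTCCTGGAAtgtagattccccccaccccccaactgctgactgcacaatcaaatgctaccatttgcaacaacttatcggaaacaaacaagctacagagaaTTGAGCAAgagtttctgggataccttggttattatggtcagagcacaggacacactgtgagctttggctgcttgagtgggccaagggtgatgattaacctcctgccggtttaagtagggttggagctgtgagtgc
Fgb, chr3:83049864-83050113, minus strand: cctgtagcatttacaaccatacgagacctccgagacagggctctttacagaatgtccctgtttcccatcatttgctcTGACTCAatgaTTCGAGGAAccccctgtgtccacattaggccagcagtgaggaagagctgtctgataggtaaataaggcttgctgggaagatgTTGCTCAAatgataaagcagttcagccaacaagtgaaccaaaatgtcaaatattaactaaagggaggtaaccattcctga
Fgg, chr3:83007474-83007723, plus strand: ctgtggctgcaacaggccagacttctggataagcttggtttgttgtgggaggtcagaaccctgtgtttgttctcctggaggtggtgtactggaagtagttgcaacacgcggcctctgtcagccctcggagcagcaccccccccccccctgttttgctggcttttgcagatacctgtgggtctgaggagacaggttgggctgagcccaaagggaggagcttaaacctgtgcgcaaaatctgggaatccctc
Procr, chr2:155750967-155751216, plus strand: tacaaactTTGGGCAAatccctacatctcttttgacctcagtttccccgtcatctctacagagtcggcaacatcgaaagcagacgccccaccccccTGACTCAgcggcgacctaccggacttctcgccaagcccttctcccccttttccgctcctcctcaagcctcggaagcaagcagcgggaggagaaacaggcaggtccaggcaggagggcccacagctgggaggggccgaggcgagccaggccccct
Plaur, chr7:24462233-24462482, plus strand: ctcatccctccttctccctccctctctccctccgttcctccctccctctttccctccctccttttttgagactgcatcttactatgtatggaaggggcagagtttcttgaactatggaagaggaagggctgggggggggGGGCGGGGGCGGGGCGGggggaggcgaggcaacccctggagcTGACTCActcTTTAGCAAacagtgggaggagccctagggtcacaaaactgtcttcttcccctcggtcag

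The 6 motifs searched on both strands, over 250 bases before and 50 after each start, were the box CCAAT, the TATA box TATAAA, the C/EBP form TTGCNNAA, the STAT form TTCNNNGAA, the AP-1 form TGANTCA and the GC box GGGCGG. They were present in 37.4%, 13.6%, 10.8%, 8.30%, 7.81% and 35.7% of 32851 such promoters, in that order. Fga and Fgb each held a C/EBP match (first base at -135 and -80 from the start) and a STAT match (-234 and -162), and Fgb also an AP-1 match at -173. Fgg held none of the 6 in this window. Procr and Plaur each held a C/EBP match (-242 and -59) and an AP-1 match (-154 and -69), and Plaur 3 GC boxes that adjoin or overlap. Among the 26 members with a promoter in the set used, 10 held the C/EBP form, 7 the GC box, 6 the AP-1 form, 5 the CCAAT box, 4 the STAT form and 3 the TATA box. These are matches of letters, not measured binding.

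On CDA-HFD the members split by where they are known to be made, a grouping from textbook knowledge and not measured here. At 16 weeks 16 of the 23 members made by hepatocytes were lower than on chow and none was higher, while 7 of the 12 made mainly by other cells were higher and F8 was lower. Over all 35 members, edgeR's quasi-likelihood test (Benjamini-Hochberg adjusted p under 0.05 over all genes tested) called 7 higher, 17 lower and 11 neither at 16 weeks against chow. Over all genes tested, 29.4% were called higher and 22.5% lower. At 8 weeks 8 members were higher, 9 lower and 18 not called, where 30.8% of all genes were called higher and 20.5% lower. Of the hepatocyte members 2 were higher and 9 lower at 8 weeks, and of the others 6 were higher and none lower. The median log2 change of the 35 members was -0.11 at 8 weeks and -0.59 at 16 weeks, beside 0.16 and 0.03 over all genes tested. Both comparisons use the same 5 chow libraries.

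Counted by libraries, 6 members (F3, Plat, Plau, Plaur, Procr and Tfpi) were higher in all 8 of the 16-week livers than in any chow liver and 20 were lower in all 8, where the groups did not overlap for 50.5% of all genes. At 8 weeks Plau, Plaur, Procr and Tfpi lay wholly above chow and Cpb2, F5 and Serpinc1 wholly below, where 30.1% of all genes did not overlap. Between 8 and 16 weeks 2 members rose (F3 and Plat) and 19 fell, all 19 of them hepatocyte members, while 10.6% of all genes were called higher and 11% lower. Libraries of those times did not overlap for F3, Plat and F12, against 3.09% of all genes.

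**Figure D1:**
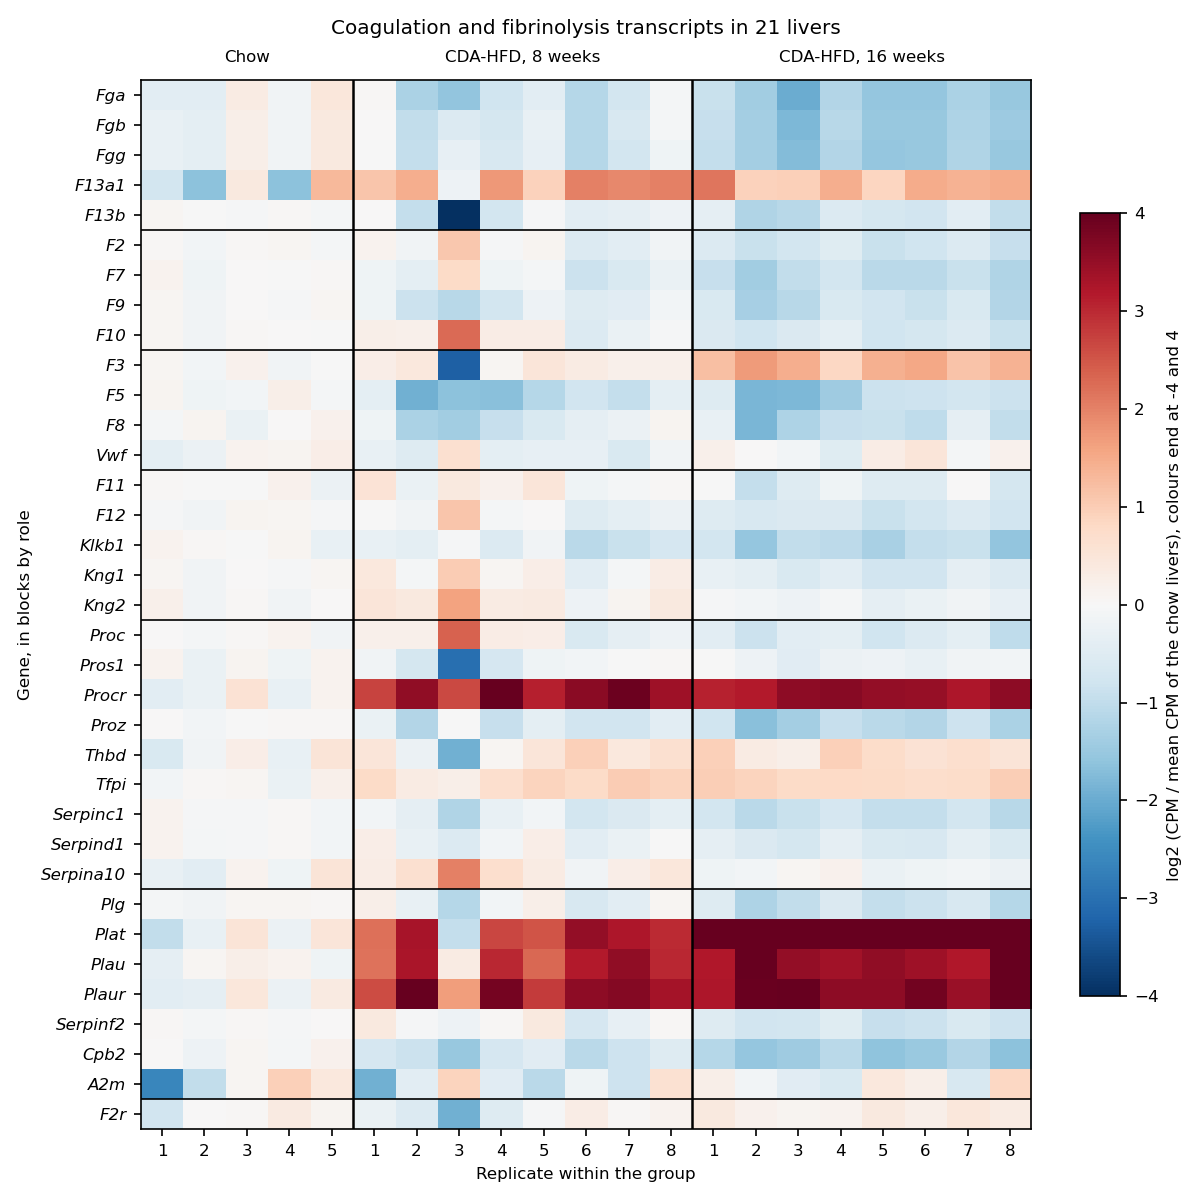
Level of each of the 35 members (rows, in blocks by role) in each of the 21 livers (columns, replicate number within a group), as log2 of its CPM over the mean of the chow livers; colours end at -4 and 4. Procr and Plaur are red across the diet livers, and Plau and Plat are red in all of them but 8-week replicate 3. Most rows turn blue at 16 weeks, and 8-week replicate 3 differs from its neighbours in many rows.

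Without 8-week replicate 3 the same fit called 8 members higher and 11 lower at 8 weeks (all genes: 31.5% and 25.8%). At 16 weeks against chow it then called 8 higher and 21 lower (34.9% and 31.4%), a comparison that the library enters through the common estimate of the spread. At 16 against 8 weeks it called 5 higher and 21 lower (14.8% and 12.5%). The split by source stayed, with 20 of 23 hepatocyte members lower at 16 weeks than on chow and none higher.

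The size of the fall depended on how libraries were scaled. TMM factors were 0.811 to 0.879 on chow and 1.15 to 1.30 at 16 weeks. Scaling by total counts alone moved the median log2 change of all genes at 16 weeks against chow from 0.03 to 0.56, at 8 weeks from 0.16 to 0.28 and at 16 against 8 weeks from 0.00 to 0.38. The share of called genes that were higher went from 56.6% to 89.5%, from 60.1% to 78.3% and from 49.0% to 94.8%. With it 12 members were called higher and 7 lower at 16 weeks against chow (all genes: 49.4% and 5.76%), 10 and 4 at 8 weeks (35.2% and 9.76%), and 5 and 5 at 16 against 8 weeks (26% and 1.43%). The 7 hepatocyte members still lower at 16 weeks were Fga, Fgb, Fgg, F7, Klkb1, Proz and Cpb2. Kng2 and Serpina10 were then called higher at 16 weeks, and the median of the 23 hepatocyte members was -0.21 beside 0.56 over all genes, in place of -0.74 beside 0.03. Of the 19 hepatocyte members lower at 16 than at 8 weeks, 5 were still called lower with total counts alone (F2, F7, F10, Kng1 and Proc).

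**Figure D2:**
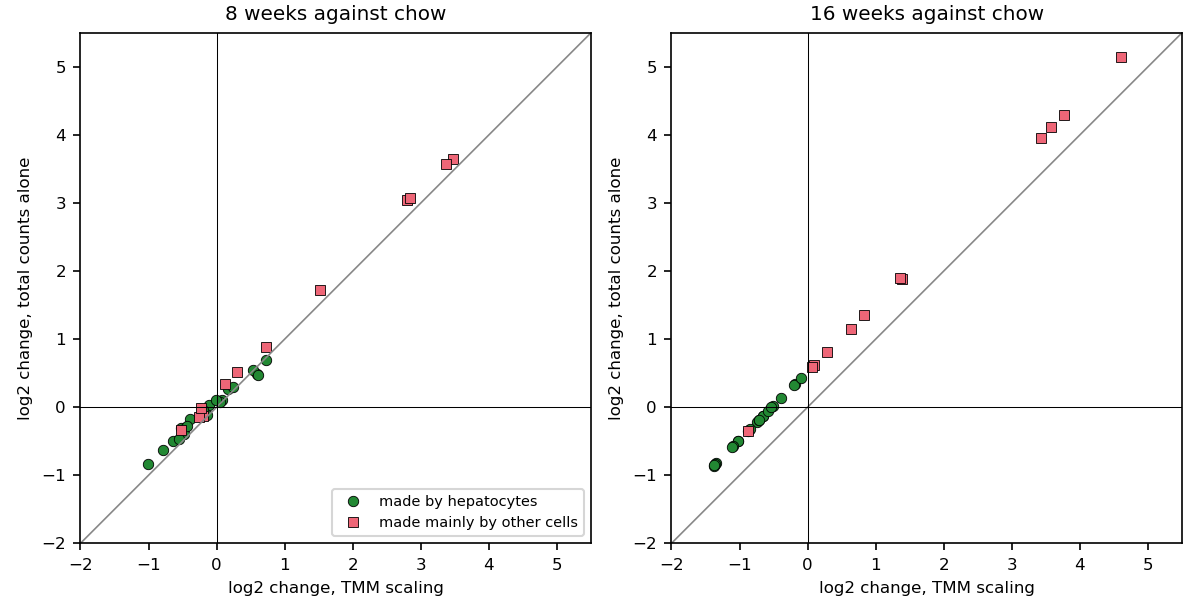
Log2 change of each member against chow at 8 weeks (left) and 16 weeks (right) with TMM scaling (x axis) and total counts alone (y axis); green circles are the 23 hepatocyte members, red squares the 12 others, and the diagonal marks equal values. At 16 weeks the points lie above the diagonal, and 5 hepatocyte members lie above 0 on the y axis.

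As a share of all counts in a library, with no scaling, the 3 fibrinogen transcripts took 1.41 to 2.59% on chow (median 1.63%), 0.629 to 2.09% at 8 weeks (median 1.37%) and 0.745 to 1.34% at 16 weeks (median 1.04%). All 8 livers at 16 weeks were below all 5 chow livers on this measure. All 35 members together took 2.76 to 4% on chow and 1.88 to 2.64% at 16 weeks. In bulk tissue, fewer cells of a type and less RNA per cell cannot be told apart.

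Levels of different genes were compared per kb of exon. Fgg led in every group (3006 ± 724 CPM per kb, SD, n = 5, on chow), ahead of Fga (2896 ± 839.9), Fgb (1849 ± 445) and Plg (767 ± 52.4), and these 4 kept that order at 8 and 16 weeks. Fgg and Fga differed by less than their spread. A2m, a broad protease inhibitor little made by adult mouse liver, was the lowest of the 35 in every group (0.032 ± 0.0222 on chow). On chow Plat, F13a1, Plaur and Procr came next above it, from 0.151 ± 0.0602 for Plat to 0.388 ± 0.121 CPM per kb for Procr. At 16 weeks Plau had risen to 10.6 ± 2.65 (SD, n = 8), Plaur to 5.15 ± 1.11, Procr to 4.18 ± 0.59 and Plat to 3.72 ± 1.24 CPM per kb.

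Fibrinogen, the soluble precursor of fibrin, is built from equal numbers of the chains encoded by Fga, Fgb and Fgg, and all 3 transcripts fell together. Fga stood at 6466, 6469, 10846, 7896 and 11916 CPM in the chow livers, at 2935 to 8956 CPM with a median of 5151 at 8 weeks and at 2199.7 to 4711 CPM with a median of 3203 at 16 weeks. The 16-week livers lay wholly below chow, while the 8-week livers overlapped both groups. Its log2 change against chow was -0.65 (SE 0.25, adjusted p = 0.0364) at 8 weeks and -1.38 (SE 0.25, adjusted p = 8.72e-05) at 16 weeks, or 0.384 times the chow level. Between 8 and 16 weeks it changed by -0.73 (SE 0.22, adjusted p = 0.0258).

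Fgb stood at 5769, 5379.7, 8307, 6456 and 9315 CPM on chow, at 3190.3 to 7197 CPM with a median of 4644 at 8 weeks and at 2028 to 3718 CPM with a median of 2648 at 16 weeks. Its log2 change was -0.50 (SE 0.20, adjusted p = 0.0422) at 8 weeks, -1.34 (SE 0.20, adjusted p = 8.57e-06) at 16 weeks and -0.84 (SE 0.18, adjusted p = 0.00288) between the times. Fgg stood at 5142, 4824, 7474, 5725 and 8291 CPM on chow, at 2857 to 6179 CPM with a median of 4523 at 8 weeks and at 1873 to 3266 CPM with a median of 2346 at 16 weeks. For both chains the 16-week livers again lay wholly below chow. The log2 change of Fgg was -0.50 (SE 0.19, adjusted p = 0.0377) at 8 weeks, -1.35 (SE 0.19, adjusted p = 5.01e-06) at 16 weeks and -0.86 (SE 0.17, adjusted p = 0.00186) between the times.

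The 3 calls at 16 weeks against chow held in every alternative run, total counts alone included (Fga -0.87, adjusted p = 0.012, Fgb -0.83, adjusted p = 0.00178, Fgg -0.84, adjusted p = 0.000648). Those at 8 weeks did not, with adjusted p = 0.161, 0.136 and 0.0922 under total counts alone. For Fga the 8-week adjusted p rose to 0.0952 without chow replicate 3, 0.117 without chow replicate 5, and 0.0658, 0.0551, 0.0591 and 0.0503 without 8-week replicates 2, 4, 6 and 7. Fgb and Fgg lost their 8-week calls without the same libraries (adjusted p up to 0.138 and 0.127), and Fgb also without chow replicate 4 (adjusted p = 0.054). Between 8 and 16 weeks the call of Fga was lost without 8-week replicate 1 (adjusted p = 0.0513) and without 16-week replicate 8 (adjusted p = 0.0512). With total counts alone the changes between the times were -0.37 (adjusted p = 0.246) for Fga, -0.44 (adjusted p = 0.0783) for Fgb and -0.44 (adjusted p = 0.0541) for Fgg.

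**Figure D3:**
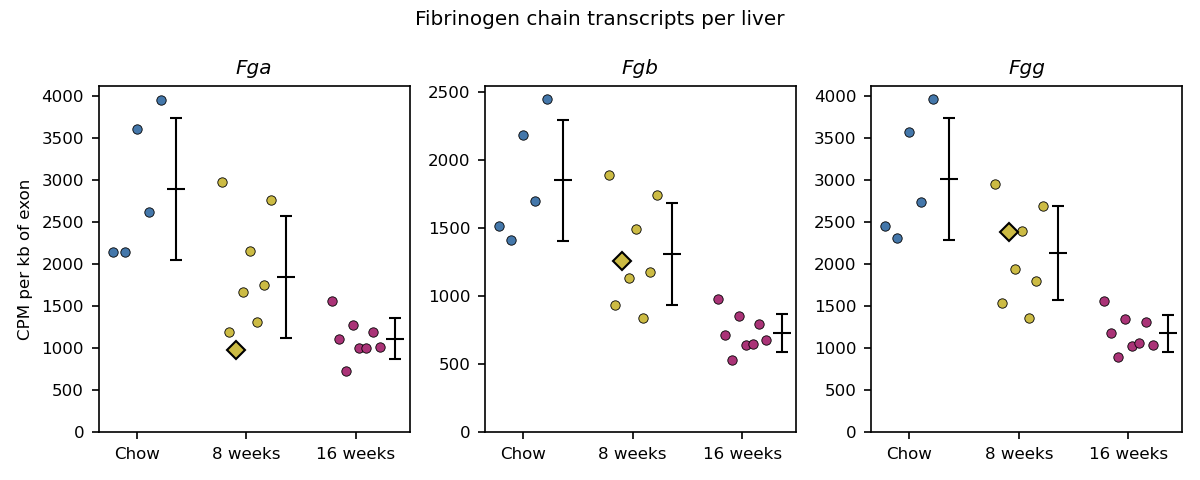
Level of the fibrinogen chain transcripts in each liver (y axis, CPM per kb of exon; points are livers, the cross bar and whiskers mean and SD); the diamond is 8-week replicate 3. For each chain the 8 livers at 16 weeks sit below the 5 chow livers, and the chow livers themselves spread widely.

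Within a library the chains kept nearly constant proportions. The ratio of Fgb to Fga per kb was 0.605 to 0.705 on chow and 0.624 to 0.728 at 16 weeks, and that of Fgg to Fga 0.991 to 1.14 and 0.997 to 1.22. In 8-week replicate 3 these ratios were 1.29 and 2.44, where the other 8-week libraries gave 0.630 to 0.785 and 0.974 to 1.29.

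Factor XIII links fibrin strands. Its A subunit gene F13a1, expressed by macrophages and platelets, stood at 0.809, 0.43, 1.79, 0.434 and 3.31 CPM on chow, at 1.18 to 5.52 CPM with a median of 4.12 at 8 weeks and at 2.47 to 5.92 CPM with a median of 3.62 at 16 weeks. The chow livers spread widely and chow replicate 5 overlapped both diet groups. F13a1 rose by a log2 change of 1.52 (SE 0.44, adjusted p = 0.00767) at 8 weeks and 1.38 (SE 0.44, adjusted p = 0.0114) at 16 weeks, with -0.13 between the times (adjusted p = 0.824). The carrier subunit gene F13b, made by hepatocytes, averaged 219 ± 9.75 CPM (SD, n = 5) on chow, 152 ± 68.4 (n = 8) at 8 weeks and 132 ± 28.4 (n = 8) at 16 weeks. All 16-week livers were below chow, but F13b was not called at 16 weeks (log2 change -0.74, SE 0.38, adjusted p = 0.108). In 8-week replicate 3 it stood at 9.6 CPM, and without that library F13b was called lower at 16 weeks than on chow (-0.74, SE 0.15, adjusted p = 0.000222) and than at 8 weeks (-0.38, SE 0.14, adjusted p = 0.0474).

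The vitamin K-dependent proteases of the procoagulant arm are prothrombin (F2) and factors VII, IX and X, all from hepatocytes. F2, the precursor of thrombin, stood at 2326, 2057, 2278, 2351 and 2128 CPM on chow, at 1510.3 to 4662 CPM with a median of 2098 at 8 weeks and at 1185 to 1581 CPM with a median of 1316 at 16 weeks. At 16 weeks all livers were below chow and the log2 change was -0.72 (SE 0.20, adjusted p = 0.0042), while at 8 weeks the groups overlapped and it was 0.08 (SE 0.20, adjusted p = 0.74). The highest 8-week value was that of replicate 3, and without it the 8-week log2 change of F2 was -0.14 (SE 0.12, adjusted p = 0.312). Between the times F2 changed by -0.80 (SE 0.18, adjusted p = 0.00374). Its 16-week change with total counts alone was -0.19 (adjusted p = 0.0909).

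F7, which binds tissue factor, stood at 129, 104, 119, 116 and 120.5 CPM on chow, at 65.2 to 199.97 CPM with a median of 101 at 8 weeks and at 44.6 to 70.4 CPM with a median of 57.3 at 16 weeks. It had fallen to 0.491 times the chow level at 16 weeks, in all 8 livers (log2 change -1.03, SE 0.19, adjusted p = 9.26e-05), and changed by -0.88 (SE 0.17, adjusted p = 0.00127) between the times. At 8 weeks the log2 change was -0.15 (SE 0.19, adjusted p = 0.521). In TMM-scaled CPM replicate 3 was again the highest 8-week liver, though not by total counts. Without it F7 was called lower at 8 weeks (-0.35, SE 0.12, adjusted p = 0.018). F10, whose active form makes thrombin, stood at 554, 476, 541, 531 and 513 CPM on chow, at 356 to 2521 CPM with a median of 606 at 8 weeks and at 283 to 395 CPM with a median of 336 at 16 weeks.

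Every 16-week liver had less F10 than any chow liver. Its log2 change at 16 weeks was -0.65 (SE 0.33, adjusted p = 0.103) with all libraries and -0.66 (SE 0.12, adjusted p = 9.1e-05) without 8-week replicate 3. That library held more than 3 times the F10 CPM of any other liver, a multiple that rests on its TMM factor of 0.496 and is smaller by total counts. At 8 weeks the log2 change of F10 was 0.59 (SE 0.34, adjusted p = 0.147) with that library and 0.04 (SE 0.13, adjusted p = 0.802) without. The fall between 8 and 16 weeks was called both ways, at -1.25 (SE 0.30, adjusted p = 0.00641) and -0.70 (SE 0.11, adjusted p = 0.000212), but its size was smaller without that library. F9, the protease lacking in haemophilia B, averaged 270.5 ± 16.9 CPM on chow (SD, n = 5), 193 ± 45.7 at 8 weeks and 149 ± 28.4 at 16 weeks (n = 8 each) and was lower at both times (log2 changes -0.49, SE 0.16, adjusted p = 0.0171, and -0.86, SE 0.16, adjusted p = 0.000123). Its change between the times was -0.38 (SE 0.14, adjusted p = 0.0628), and it was called without 8-week replicate 2 (adjusted p = 0.0459) or 3 (adjusted p = 0.012).

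F7, F10 and Proz lie side by side on chromosome 8 (13026034 to 13076026), and all 3 were lower in every 16-week liver than in any chow liver. This was not particular to them, as 19 of the 23 hepatocyte members lay wholly below chow. Over all genes, those groups did not overlap for 50.5%. The enzymes and carriers that clotting factors need were checked as a list of 6 genes. At 16 weeks 4 of the 6 were lower and none higher, at 8 weeks 1 was lower, and between the times 1 was lower. Without 8-week replicate 3 these counts were 5, 3 and 4 lower, and none higher. In the same order, 22.5%, 20.5% and 11% of all genes were called lower with all libraries, and 31.4%, 25.8% and 12.5% without it. Ggcx, the carboxylase that uses vitamin K, averaged 77.8 ± 8.98 CPM on chow, 53.2 ± 18 at 8 weeks and 41.1 ± 6.33 at 16 weeks, with log2 changes of -0.55 (adjusted p = 0.0279) and -0.92 (adjusted p = 0.000564). Lman1, the cargo receptor of factors V and VIII, changed by -0.70 (adjusted p = 0.0127) at 16 weeks, and Furin, a propeptide-cutting protease, by -0.52 (adjusted p = 0.0212). Vkorc1, which recycles vitamin K, was lower at 16 than at 8 weeks (-1.38, adjusted p = 0.017; -0.60, adjusted p = 0.0128 without 8-week replicate 3).

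The initiator and the cofactors went different ways. F3, tissue factor, which starts clotting and is kept off the blood side of vessels, stood at 3.57, 3.1, 3.78, 3.01 and 3.29 CPM on chow, at 0.348 to 4.67 CPM with a median of 3.95 at 8 weeks and at 5.95 to 11 CPM with a median of 8.86 at 16 weeks. All 16-week livers lay above all chow and all 8-week livers. F3 was 2.56 times the chow level at 16 weeks (log2 change 1.36, SE 0.31, adjusted p = 0.000964) and rose by 1.23 (SE 0.26, adjusted p = 0.00304) between the times. At 8 weeks it was 0.13 (SE 0.30, adjusted p = 0.735), and 0.28 (SE 0.13, adjusted p = 0.0669) without replicate 3, the lowest F3 value of all livers at 0.348 CPM.

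F5, factor V, the cofactor of factor X, stood at 791, 655, 684, 859 and 698 CPM on chow, at 195 to 561 CPM with a median of 357 at 8 weeks and at 209 to 521 CPM with a median of 406 at 16 weeks. Both diet groups lay wholly below chow. F5 had reached 0.496 times the chow level by 8 weeks (log2 change -1.01, SE 0.26, adjusted p = 0.00291) and stood at 0.49 times at 16 weeks (-1.03, SE 0.26, adjusted p = 0.00199). Its change between the times was -0.02 (SE 0.23, adjusted p = 0.965). With total counts alone the 8-week call held (-0.83, adjusted p = 0.0281) and the 16-week call did not (-0.50, adjusted p = 0.167).

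F8, factor VIII, made by endothelial cells, averaged 27.3 ± 3.11 CPM on chow (SD, n = 5), 19 ± 6.65 at 8 weeks and 14.9 ± 4.79 at 16 weeks (n = 8 each). It was the one member not made by hepatocytes that was called lower at 16 weeks (log2 change -0.87, SE 0.24, adjusted p = 0.00425), in all 8 livers. That call was lost with total counts alone (-0.36, adjusted p = 0.316). At 8 weeks it was -0.53 (SE 0.24, adjusted p = 0.0724), called without replicate 8 (adjusted p = 0.023). Vwf, its plasma carrier from endothelium and platelets, averaged 13 ± 2.46, 11.4 ± 3.78 and 13.9 ± 2.65 CPM and was not called in any comparison with all libraries. Without 8-week replicate 3, Vwf was called lower at 8 weeks (-0.38, SE 0.14, adjusted p = 0.0241) and higher at 16 than at 8 weeks (0.46, SE 0.12, adjusted p = 0.00849).

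The contact pathway begins with factor XII, prekallikrein (Klkb1) and kininogen, and all 5 of its genes were lower at 16 than at 8 weeks. Klkb1 stood at 269, 249.6, 243, 260.4 and 197 CPM on chow, at 115 to 235 CPM with a median of 177 at 8 weeks and at 81.4 to 145 CPM with a median of 121 at 16 weeks, with no overlap between 16 weeks and chow. Its log2 change was -0.47 (SE 0.17, adjusted p = 0.0249) at 8 weeks, -1.10 (SE 0.17, adjusted p = 1.22e-05) at 16 weeks and -0.63 (SE 0.15, adjusted p = 0.00657) between the times. The 8-week call was lost without chow replicate 1 (adjusted p = 0.059) or 4 (adjusted p = 0.0546). A predicted gene, Gm45753, overlaps Klkb1 and shares 42.7% of its 50-base words, but no library gave it more than 7 counts.

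F12 averaged 609.9 ± 41.8 CPM on chow, 634 ± 281 at 8 weeks and 389 ± 34.5 at 16 weeks, and was lower at 16 weeks than on chow (-0.65, SE 0.19, adjusted p = 0.00757) and than at 8 weeks (-0.71, SE 0.17, adjusted p = 0.00765), with no overlap in either. In 8-week replicate 3 it stood at 1309 CPM, and without that library the 8-week mean was 537 ± 71 CPM (n = 7) and the change between the times -0.46 (SE 0.09, adjusted p = 0.000694). F11, the target of factor XII, averaged 95.3 ± 9.22, 107 ± 23.2 and 72.7 ± 17 CPM. It fell between 8 and 16 weeks (-0.56, SE 0.15, adjusted p = 0.0124), and against chow it changed by -0.39 (SE 0.17, adjusted p = 0.0547), a change that was called when any 1 of 7 libraries was left out, among them chow replicate 5 (adjusted p = 0.0471) and 8-week replicate 3 (adjusted p = 0.0312). The other 5 were 8-week replicates 1 and 2 (adjusted p = 0.0486 and 0.0482) and 16-week replicates 1, 4 and 7 (adjusted p = 0.0298, 0.0488 and 0.0251).

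The kininogen genes Kng1 and Kng2 share 557 of their 50-base words, 17.2% of those of Kng1 and 19.4% of those of Kng2, so their split is uncertain. Kng1 averaged 1430.1 ± 88, 1694 ± 548 and 1003 ± 122 CPM on chow, at 8 and at 16 weeks, and was lower at 16 weeks than on chow (-0.51, SE 0.17, adjusted p = 0.0165) and than at 8 weeks (-0.76, SE 0.15, adjusted p = 0.00199). Kng2 averaged 139.6 ± 13.7, 201 ± 93.5 and 123 ± 9.93 CPM. It was higher at 8 weeks (0.53, SE 0.21, adjusted p = 0.0385; 0.27, SE 0.10, adjusted p = 0.0311 without replicate 3) and lower at 16 than at 8 weeks (-0.71, SE 0.18, adjusted p = 0.00908; -0.46, SE 0.09, adjusted p = 0.00107 without it). The 8-week call was lost without any 1 of chow replicates 2 to 5 (adjusted p = 0.0801, 0.0605, 0.0847 and 0.065). It was also lost with DESeq2 size factors, with only the 2 groups compared and without 8-week replicates 3, 4 and 5 (adjusted p up to 0.164). The ratio of Kng2 to Kng1 per kb was 0.109 to 0.126 on chow and 0.136 to 0.163 at 16 weeks, with no overlap.

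Of the 9 anticoagulant members, 2 were higher and 3 lower at 16 weeks, and 3 were higher and 2 lower at 8 weeks, shares near those of all genes. Without 8-week replicate 3, 3 were higher and 4 lower at 16 weeks and the 8-week counts were the same. Procr, the endothelial protein C receptor that presents protein C for activation, rose most. It stood at 0.588, 0.66, 1.18, 0.637 and 0.876 CPM on chow, at 4.87 to 13.8 CPM with a median of 8.78 at 8 weeks and at 6.72 to 9.88 CPM with a median of 8.91 at 16 weeks. The lowest diet liver lay above the highest chow liver. Procr was 11 times the chow level at 8 weeks (log2 change 3.47, SE 0.27, adjusted p = 5.56e-09) and 10.7 times at 16 weeks (3.42, SE 0.27, adjusted p = 2.34e-09), with -0.04 (SE 0.19, adjusted p = 0.902) between the times.

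Tfpi, which blocks the tissue factor complex, averaged 9.29 ± 1.12 CPM on chow, 15.3 ± 2.71 at 8 weeks and 16.5 ± 1.3 at 16 weeks and was higher in every diet liver than in any chow liver (0.72, SE 0.13, adjusted p = 8.64e-05, and 0.83, SE 0.13, adjusted p = 1.09e-05). Thbd, thrombomodulin, which turns thrombin towards protein C, averaged 7.63 ± 2.33, 9.36 ± 3.84 and 11.9 ± 2.13 CPM and was not called with all libraries (16 weeks: 0.64, SE 0.29, adjusted p = 0.0755). It was called higher at 16 weeks without chow replicate 5 (adjusted p = 0.0438) or 8-week replicate 3 (adjusted p = 0.0062).

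Serpinc1, antithrombin, the main inhibitor of thrombin and factor X, fell stepwise with TMM scaling. It stood at 2749.8, 2454, 2459.7, 2585 and 2330.2 CPM on chow, at 1085 to 2324 CPM with a median of 1950.2 at 8 weeks and at 1165 to 1592 CPM with a median of 1332 at 16 weeks. Both diet groups lay wholly below chow. The log2 change was -0.44 (SE 0.15, adjusted p = 0.0198) at 8 weeks, -0.88 (SE 0.15, adjusted p = 4.2e-05) at 16 weeks and -0.44 (SE 0.13, adjusted p = 0.0239) between the times, the last lost without 16-week replicate 8 (adjusted p = 0.0534). Scaled by total counts alone, the 16-week change was -0.35 (adjusted p = 0.14). The 8-week call was lost with total counts alone and with no filter on low counts (adjusted p up to 0.27). The call between the times was lost with both of these and with only the 2 groups compared (adjusted p up to 0.738).

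Proc, the zymogen of activated protein C, stood at 555, 529, 570.2, 613 and 499 CPM on chow, at 360.1 to 2863 CPM with a median of 637 at 8 weeks and at 271 to 422 CPM with a median of 395 at 16 weeks. All 16-week livers were below chow, and 8-week replicate 3 held more than 4 times the Proc CPM of any other liver. That multiple rests on its TMM factor of 0.496 and is smaller by total counts. The log2 change of Proc at 16 weeks was -0.59 (SE 0.36, adjusted p = 0.184) with that library in the fit and -0.59 (SE 0.15, adjusted p = 0.00146) without it. Between the times Proc changed by -1.19 (SE 0.33, adjusted p = 0.0144) with it and -0.58 (SE 0.14, adjusted p = 0.00383) without it. At 8 weeks against chow the log2 changes were 0.61 (SE 0.37, adjusted p = 0.175) and -0.01 (SE 0.15, adjusted p = 0.967). Pros1, its cofactor protein S, averaged 85.7 ± 11.2, 65.4 ± 25.7 and 74.7 ± 6.44 CPM and was not called in any of the 3 comparisons.

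Proz, protein Z, which helps to inhibit factor X, stood at 587, 537, 565, 596 and 593 CPM on chow, at 257 to 567 CPM with a median of 385 at 8 weeks and at 180.0 to 328 CPM with a median of 266 at 16 weeks. Its chow values were close together and all 16-week livers lay below them. The log2 change was -0.55 (SE 0.17, adjusted p = 0.0112) at 8 weeks, -1.11 (SE 0.17, adjusted p = 1.12e-05) at 16 weeks and -0.56 (SE 0.15, adjusted p = 0.0129) between the times. Its partner inhibitor Serpina10 averaged 339.6 ± 93.2, 559 ± 339 and 319 ± 35.3 CPM. Serpina10 was higher at 8 weeks than on chow (0.72, SE 0.27, adjusted p = 0.0327; 0.37, SE 0.15, adjusted p = 0.0461 without replicate 3) and lower at 16 than at 8 weeks (-0.81, SE 0.23, adjusted p = 0.0199; -0.46, SE 0.13, adjusted p = 0.0149 without replicate 3). The call between the times was lost with total counts alone (-0.26, adjusted p = 0.173) and without 8-week replicates 3, 4 and 5 (-0.41, adjusted p = 0.0702).

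The 8-week call of Serpina10 was lost without chow replicate 1, 2 or 4 (adjusted p = 0.0786, 0.085 and 0.072). It was also lost with only the 2 groups compared and without 8-week replicates 3, 4 and 5 (adjusted p up to 0.131). Serpind1, heparin cofactor II, averaged 833 ± 62.1, 769 ± 164 and 576 ± 53.3 CPM and was lower at 16 weeks than on chow (-0.53, SE 0.13, adjusted p = 0.00182) and than at 8 weeks (-0.42, SE 0.12, adjusted p = 0.0166).

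In the plasminogen system the zymogen Plg and the protectors of fibrin Serpinf2 and Cpb2 were lower at 16 weeks, while both activators and the uPA receptor were higher. Plg, plasminogen, stood at 2717, 2569.8, 3019, 2995 and 2926 CPM on chow, at 1278 to 3370.2 CPM with a median of 2486 at 8 weeks and at 1204 to 1993 CPM with a median of 1509 at 16 weeks. At 16 weeks all livers were below chow (log2 change -0.84, SE 0.19, adjusted p = 0.00089), while at 8 weeks the groups overlapped (-0.19, SE 0.19, adjusted p = 0.406). Between the times it changed by -0.65 (SE 0.17, adjusted p = 0.0123). With total counts alone its 16-week change was -0.32 (adjusted p = 0.247).

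Plat, tissue plasminogen activator, had the largest rise of the 35 at 16 weeks. It stood at 0.478, 0.774, 1.35, 0.811 and 1.31 CPM on chow, at 0.487 to 10.7 CPM with a median of 6.75 at 8 weeks and at 15 to 37.4 CPM with a median of 21.9 at 16 weeks. All 16-week livers lay above all 8-week livers, and 7 of the 8 livers at 8 weeks lay above chow, replicate 3 being within the chow range. Plat was 6.96 times the chow level at 8 weeks (log2 change 2.80, SE 0.46, adjusted p = 4.75e-05) and 24.4 times at 16 weeks (4.61, SE 0.50, adjusted p = 1.44e-07), a further rise of 1.81 (SE 0.35, adjusted p = 0.00142). Without 8-week replicate 3 that further rise was 1.65 (SE 0.23, adjusted p = 6.16e-05).

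Plau, the activator uPA, stood at 1.65, 2.21, 2.46, 2.32 and 1.86 CPM on chow, at 2.64 to 24.5 CPM with a median of 17 at 8 weeks and at 19.2 to 35.9 CPM with a median of 23 at 16 weeks, with both diet groups wholly above chow. Its log2 change was 2.84 (SE 0.37, adjusted p = 2.74e-06) at 8 weeks and 3.57 (SE 0.38, adjusted p = 1.15e-07) at 16 weeks, or 11.9 times the chow level. The change between the times was 0.73 (SE 0.28, adjusted p = 0.0624), and it was called without 8-week replicate 3 (adjusted p = 0.0252), 6 (adjusted p = 0.0475) or 7 (adjusted p = 0.0323). Plaur, the receptor that holds uPA on the cell surface, stood at 0.735, 0.774, 1.35, 0.84 and 1.26 CPM on chow, at 3.13 to 17 CPM with a median of 10.9 at 8 weeks and at 9.37 to 17.2 CPM with a median of 13.2 at 16 weeks. It too lay wholly above chow at both times, at 10.3 and 13.5 times the chow level (3.36, SE 0.34, adjusted p = 1.31e-07, and 3.76, SE 0.35, adjusted p = 1.83e-08), with 0.40 (SE 0.25, adjusted p = 0.254) between them.

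The balance of the 2 activators' transcripts shifted between 8 and 16 weeks. The ratio of Plau to Plat in CPM was 1.417 to 3.46 on chow and 0.888 to 1.425 at 16 weeks, ranges that overlap slightly. At 8 weeks it was 1.78 to 2.84, apart from 5.43 in replicate 3. Plat had only 13 to 48 counts per library on chow and 7 in 8-week replicate 3. Every 8-week liver had a higher ratio than every 16-week liver.

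**Figure D4:**
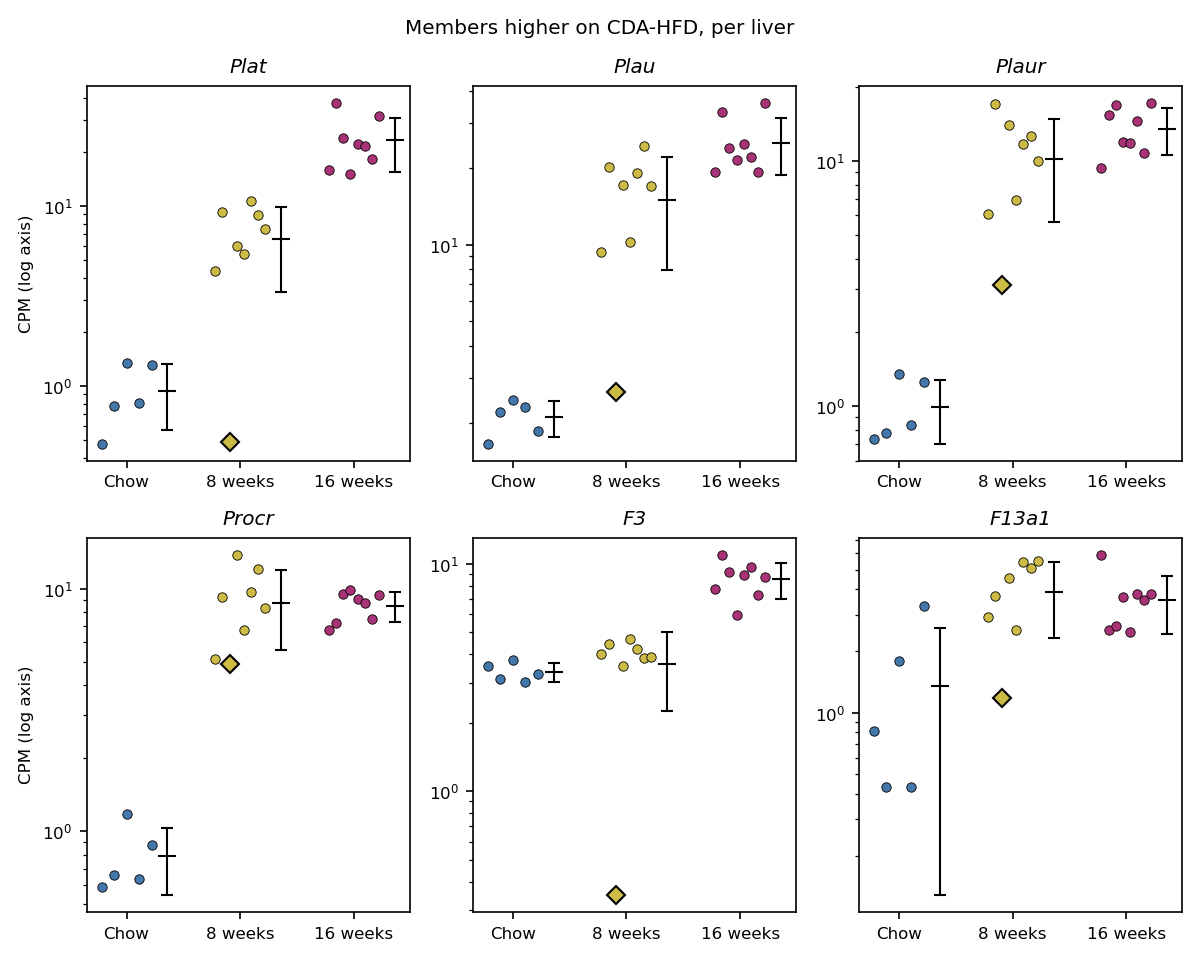
Level of 6 members that were higher on CDA-HFD in each liver (y axis, CPM on a log axis; points are livers, the cross bar and whiskers mean and SD); the diamond is 8-week replicate 3. Plau, Plaur and Procr are above chow in all diet livers, F3 is above chow in all livers at 16 weeks, and Plat rises again between 8 and 16 weeks.

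Cpb2 encodes a carboxypeptidase, also called TAFI, that protects fibrin from plasmin. It stood at 485, 419, 514, 454 and 543 CPM on chow, at 168 to 353 CPM with a median of 286 at 8 weeks and at 154 to 229 CPM with a median of 177 at 16 weeks, with no overlap between chow and either diet group. Its log2 change was -0.79 (SE 0.15, adjusted p = 0.000216) at 8 weeks, -1.37 (SE 0.15, adjusted p = 1.67e-07) at 16 weeks and -0.58 (SE 0.13, adjusted p = 0.00537) between the times, and at both times against chow the call held in every alternative run. Serpinf2, the plasmin inhibitor alpha-2-antiplasmin, averaged 1148 ± 49.7, 1142 ± 270.0 and 703 ± 81.2 CPM. It was close to chow at 8 weeks (-0.01, SE 0.15, adjusted p = 0.967) and lower at 16 weeks than on chow (-0.71, SE 0.15, adjusted p = 0.000344) and than at 8 weeks (-0.70, SE 0.13, adjusted p = 0.00106). A2m averaged 0.225 ± 0.156, 0.198 ± 0.122 and 0.237 ± 0.0895 CPM and was not called, and its low counts limit the comparison.

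F2r, the thrombin receptor PAR1 of stellate and endothelial cells, averaged 72.1 ± 18.3 CPM on chow, 61.5 ± 22.1 at 8 weeks and 87.6 ± 7.97 at 16 weeks. It was not called with all libraries (between the times: 0.51, SE 0.21, adjusted p = 0.0853), and was called higher at 16 than at 8 weeks without 8-week replicate 3 (0.38, SE 0.14, adjusted p = 0.0471) or 6 (adjusted p = 0.038).

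**Figure D5:**
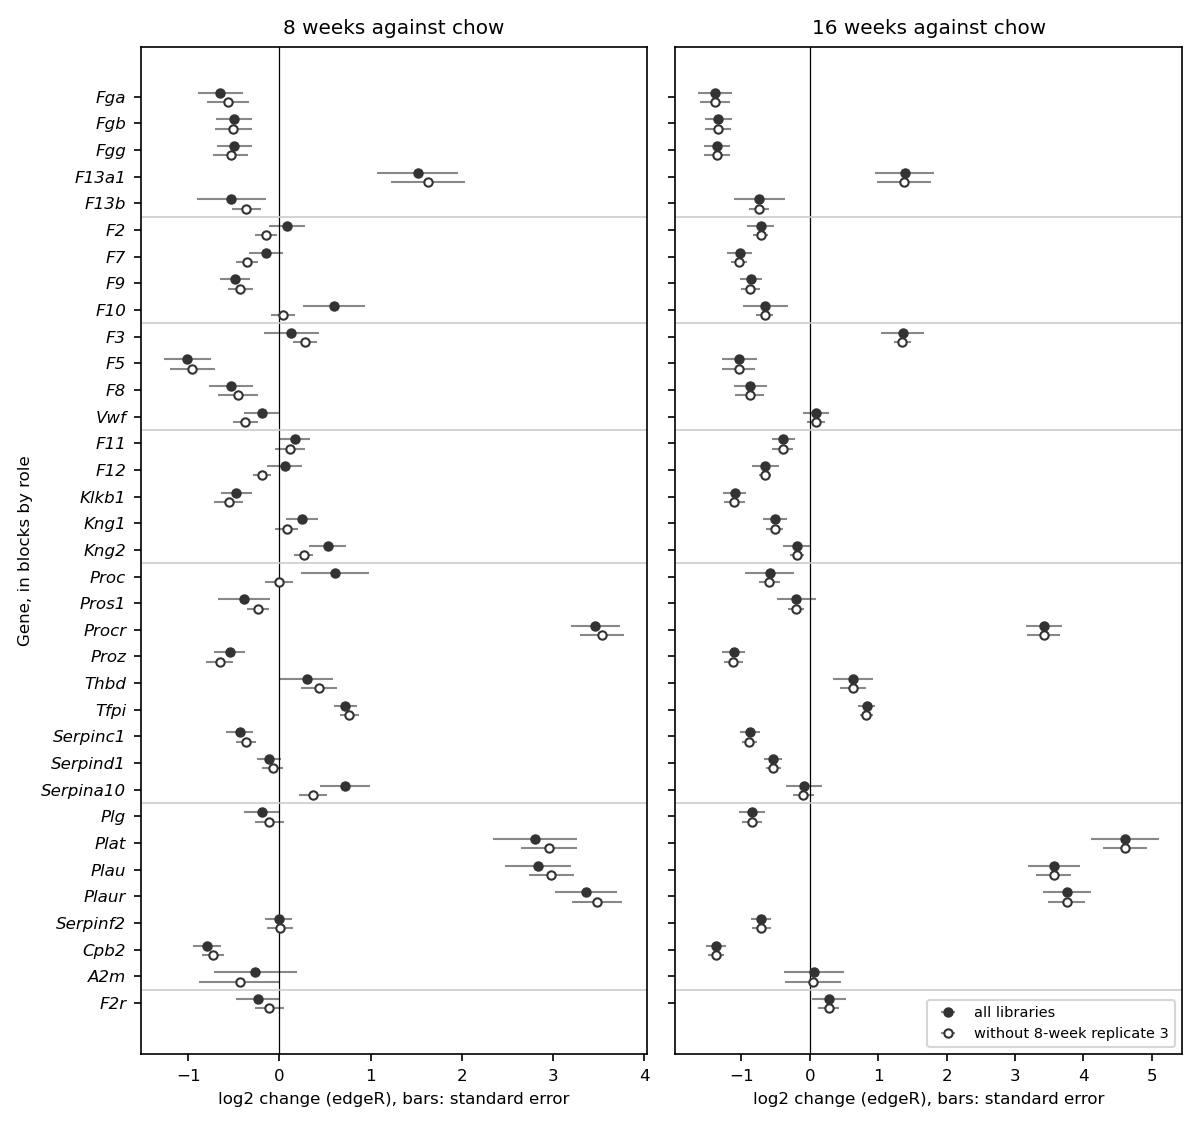
Log2 change against chow of the 35 members at 8 weeks (left) and 16 weeks (right), with standard errors as bars, from edgeR on all 21 libraries (filled) and without 8-week replicate 3 (open). At 8 weeks F10, Proc and Serpina10 move most between the fits, and at 16 weeks all 23 hepatocyte members lie below 0 with all libraries.

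Other regulators and receptors of clotting and fibrinolysis were taken as a list of 20 genes, 19 of them tested. At 8 weeks 6 were higher and 5 lower, at 16 weeks 5 were higher and 7 lower, and between the times 2 were higher and 6 lower. Over all genes, 30.8% were higher and 20.5% lower at 8 weeks, 29.4% and 22.5% at 16 weeks, and 10.6% and 11% between the times. Anxa2, a surface docking site for plasminogen and tPA, went from 17.1 ± 3 CPM on chow to 225 ± 111 and 279.7 ± 62.8 (3.72, adjusted p = 3.21e-08 and 4.04, adjusted p = 5.62e-09). Serpinb2, an inhibitor of uPA, rose from 0.0302 ± 0.0309 CPM to 0.312 ± 0.319 and 0.333 ± 0.356 (3.26, adjusted p = 0.0149 and 3.33, adjusted p = 0.0107), at levels of few counts.

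F2rl1, the protease receptor PAR2, was higher at 16 weeks than on chow (3.08, adjusted p = 2.01e-05) and than at 8 weeks (2.36, adjusted p = 0.000318), from 0.382 ± 0.107 and 0.608 ± 0.451 to 3.22 ± 1.2 CPM. Serpine2, protease nexin 1, was higher at 16 than at 8 weeks (1.82, adjusted p = 0.000105), and Hgfac, a factor XII-like protease, lower (-0.95, adjusted p = 0.000588). Of 11 platelet and megakaryocyte genes, 5 were tested. Pf4, a platelet chemokine also expressed by some macrophages, rose from 0.884 ± 0.368 CPM to 5.89 ± 3.96 and 6.31 ± 1.63 (2.72, adjusted p = 3.53e-05 and 2.83, adjusted p = 1.34e-05). Treml1, of platelet granules, rose by 2.16 (adjusted p = 0.00215) and 2.29 (adjusted p = 0.00083) from 0.0696 ± 0.031 CPM to 0.339 ± 0.283 and 0.344 ± 0.0811. Those are levels of few counts. Itga2b, a platelet integrin chain, was higher at 8 weeks (1.14, adjusted p = 0.0155; 0.58, adjusted p = 0.00538 without 8-week replicate 3) and lower at 16 than at 8 weeks (-1.32, adjusted p = 0.00661; -0.77, adjusted p = 0.000675 without it). Its partner Itgb3 was lower at 16 than at 8 weeks (-0.74, adjusted p = 0.00653), and Ppbp was lower at 16 weeks than on chow (-0.68, adjusted p = 0.0361).

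Beside the hepatocyte members, 18 other plasma proteins of hepatocytes were counted. Of these 11 were lower and none higher at 16 weeks against chow, 15 were lower and none higher at 16 against 8 weeks, and 4 were higher and 2 lower at 8 weeks. Without 8-week replicate 3 these counts were 13 lower, 15 lower, and 3 higher and 2 lower. Over all genes with all libraries, 22.5% were lower at 16 weeks, 11% lower between the times, and 30.8% higher and 20.5% lower at 8 weeks. The median log2 change of the 18 at 16 weeks was -0.65, beside -0.74 for the 23 hepatocyte members of the clotting set. At 8 weeks it was 0.28 with all libraries and -0.02 without replicate 3, and between the times -0.90 and -0.65. Apob fell most, with log2 changes of -1.42 (adjusted p = 5.6e-06) at 8 and -1.66 (adjusted p = 4.08e-07) at 16 weeks, followed at 16 weeks by Itih4 (-0.95, adjusted p = 0.000433) and Ambp (-0.90, adjusted p = 0.0296). Hpx (1.39, adjusted p = 0.00629) and Apoa1 (1.35, adjusted p = 0.0355) were higher at 8 weeks, with SDs near or above the mean there. Without replicate 3 they were 0.86 (adjusted p = 0.00338) and 0.38 (adjusted p = 0.115). Between the times Apoa1 (-1.73, adjusted p = 0.0109), Apoa2 (-1.70, adjusted p = 0.00956) and Trf (-1.34, adjusted p = 0.0133) fell most, and without replicate 3 their changes were -0.75 (adjusted p = 0.00382), -0.86 (adjusted p = 0.00647) and -0.63 (adjusted p = 0.00347).

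Of 10 liver transcription factors, 7 were lower at 8 weeks and 9 at 16 weeks, and none was higher. Over all genes, 20.5% and 22.5% were called lower at these times. Onecut1 fell from 30.4 ± 23 CPM to 2.86 ± 1.69 and 1.91 ± 1.49 (-3.39, adjusted p = 4.79e-05 and -3.98, adjusted p = 5.15e-06). Hnf4a, which drives many hepatocyte genes, changed by -0.95 (adjusted p = 1.4e-05) and -1.20 (adjusted p = 3.7e-07) and Prox1 by -1.50 (adjusted p = 0.000411) and -1.27 (adjusted p = 0.00132). Cebpa (-0.40, adjusted p = 0.0155) was lower at 16 than at 8 weeks.

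Macrophage, stellate cell and bile duct markers rose as the members that rose did, while endothelial markers were mixed. The summed level of 8 macrophage markers was 320 to 437 CPM on chow (median 350.4), 1309 to 7142 at 8 weeks (median 2838) and 2597 to 4545 at 16 weeks (median 3583). For 8 stellate cell and myofibroblast markers the medians were 319, 896 and 1223 CPM, and the groups' ranges were 247 to 390, 499 to 1285 and 1003 to 1303. For 6 bile duct cell markers the medians were 57.6, 208 and 1019 CPM, with ranges of 50.8 to 85.1, 95.0 to 480.2 and 452 to 1510. The 7 vascular endothelial markers summed to 165 to 192 CPM on chow, 270.1 to 302 at 8 weeks and 213 to 261 at 16 weeks. The 8 sinusoidal endothelial markers summed to 422 to 472, 383 to 682 and 298 to 491.0 CPM. The highest 8-week sums of the macrophage, stellate, hepatocyte and both endothelial lists were those of replicate 3, and the next highest were 3272, 1133, 200694, 299.8 (vascular) and 591 (sinusoidal) CPM. Those ranks rest on the TMM factor of replicate 3, 0.496. By total counts alone its sums stand lower beside the others, and of these lists only the macrophage sum stays highest. No marker of these lists was at 0 in every library of a group. With the members that fell, 9 hepatocyte markers summed to 106206 to 160250 CPM on chow, 100368 to 342859 at 8 weeks and 77477 to 109079 at 16 weeks. Of the macrophage markers 8 of 8 were called higher at 8 weeks and 7 of 8 at 16 weeks, of the stellate markers 6 and 5 of 8, and of the bile duct markers 4 and 6 of 6. Of the 8 sinusoidal endothelial markers 2 were higher and 1 lower at 8 weeks, and 1 was higher and 3 lower at 16 weeks. Without 8-week replicate 3, 5 of these 8 were higher and 2 lower at 8 weeks (all genes: 31.5% and 25.8%). Their 16-week counts were then the same. Of the 7 vascular endothelial markers 4 were higher at 8 weeks and 2 at 16 weeks, and none was lower. Of the hepatocyte markers 6 of 9 were lower at 16 weeks. Over all genes, 30.8% were called higher and 20.5% lower at 8 weeks, and 29.4% and 22.5% at 16 weeks. The part of these cell types in the changes of Procr, Plat, Plau, Plaur, F3, F13a1 and the hepatocyte members was not tested.

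Squamous epithelium transcripts, 8 in the list, summed to 0.404 to 0.889 CPM on chow, with Krt13, Krt5, Krt6a and Sprr3 at 0 there, to 2.59 to 1546 CPM at 8 weeks and to 6.67 to 239 CPM at 16 weeks. With the 5 libraries highest in them left out (8-week replicates 3 and 6, 16-week replicates 1, 4 and 7), the 16-week log2 change against chow was 3.48 (adjusted p = 1.07e-08) for Procr, 4.85 (adjusted p = 1.88e-09) for Plat, 3.74 (adjusted p = 4.58e-09) for Plau, 3.93 (adjusted p = 6.7e-09) for Plaur and 1.51 (adjusted p = 5.91e-09) for F3.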

How the data were processed

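The deposited files hold raw counts per Ensembl gene for 21 liver libraries made with a stranded total RNA kit, per the labels' protocols. The submitters' processing notes name the build GRCm38. Which aligner, counter, strand setting and annotation were used is not given in the sources used here, so reads of genes that overlap cannot be told apart. The 21 library files equalled the series table, no 2 libraries were identical, and 99.56% of identifiers had a symbol. Groups follow the labels.

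The members, lists and tests were chosen with earlier results of these data known. edgeR 4.0.16 (R 4.3.3) with TMM scaling, its filter on low counts (17104 genes kept) and its quasi-likelihood test was fitted once to all libraries, with 3 contrasts and Benjamini-Hochberg adjustment over all genes tested at 0.05. The standard error is the size of the log2 change over the root of F. Levels are CPM on TMM-scaled libraries, and per kb over GENCODE M21 exons. At least 99.911% of a library's counts fell in tested genes. DESeq2 1.42.0, other scalings, filters and left-out libraries were alternatives. Members given in full were those called with a log2 change of at least 1 in size in some comparison (at most 20), plus Fga, Fgb, Fgg, F2, Serpinc1 and Plg; of each other list, up to 3 called genes with the largest change per comparison were named, apart from some that are not reported here. Figures used matplotlib 3.10.9.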

Additional observations from a re-analysis of the deposited data

Results flagged for a closer look

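In 12 of 105 sets of member values by group, 1 liver lay far from the others by Dixon's test; chance gives about 1 in 20. Of these, 11 were in 8-week replicate 3, 9 as the highest and 2 as the lowest value. The TMM factor of that library was 0.496, against 0.884 to 1.17 in the other 8-week libraries. Its CPM thus stand higher beside theirs than by total counts alone. As shares of total counts, F7, Kng1 and Vwf were not highest in that library. Dixon's test was not run on that scale. In 8-week replicate 3 F10 stood at 2521 CPM where the next liver had 647, Proc at 2863 (next 674), Serpina10 at 1377 (next 539), F12 at 1309 (next 617) and Kng2 at 426 (next 194). F2 stood at 4662 CPM (next 2430), Kng1 at 2874 (next 1895), F7 at 199.97 (next 111) and Vwf at 20.4 (next 11.7). Pros1 was lowest at 10.6 CPM, where the next liver had 53.1, and F3 lowest at 0.348, where the next had 3.55. The remaining one was F13a1 in 16-week replicate 1, at 5.92 CPM (next 3.81).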

How the results depend on the processing

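Leaving out any 1 library gave 13 to 19 members called at 8 weeks against chow, 24 to 29 at 16 weeks against chow and 19 to 26 between the times. The other settings gave 13 to 18, 19 to 31 and 10 to 26. The 10 came from total counts alone, which kept 7 of the 21 calls between the times. Over all genes, 3703 were called between the times, against 2226 with those 2 groups alone, 5579 without the 5 libraries highest in squamous transcripts, and 2248 to 5132 with 1 library left out (2455 without 16-week replicate 5, 2248 without 16-week replicate 8).

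Log2 changes that turned direction were these. With total counts alone they were Serpind1 0.0308 and Serpinf2 0.11 at 8 weeks, F11 0.13, Kng1 0.0137, Kng2 0.34, Pros1 0.33 and Serpina10 0.43 at 16 weeks, and F13a1 0.16, F13b 0.10, F5 0.33 and Procr 0.30 between the times. Without 8-week replicates 3, 4 and 5 they were F2 -0.22, F10 -0.0700, F12 -0.26 and Proc -0.14 at 8 weeks and Pros1 -0.0222 between the times. Without the 5 squamous libraries they were F2 -0.0714, F12 -0.13 and Serpinf2 0.11 at 8 weeks. DESeq2's Wald test gave F10 -0.0281 and Proc -0.0709, only 2 groups gave F12 -0.0095 and a mean of at least 1 CPM gave Serpinf2 0.0217, all at 8 weeks, and no filter gave F5 0.0065 between the times. With 1 library left out, the 8-week ranges were F2 -0.14 to 0.16, F12 -0.19 to 0.12, Proc -0.0085 to 0.72, Serpinf2 -0.0766 to 0.0666 and A2m -0.52 to 0.11. At 16 weeks they were Serpina10 -0.18 to 0.0704 and A2m -0.19 to 0.43, and between the times F5 -0.11 to 0.10 and Procr -0.12 to 0.0830. Of these changes only Kng1 at 16 weeks had passed the threshold with TMM, and the causes were not tested. No paired analysis was possible because the labels tie no replicate number to a shared mouse or batch across groups. Depth limits A2m and, on chow, Procr, Plat, Plaur and F13a1.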
